A study of Mus musculus with 6 samples.

Results

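The apolipoprotein genes Apoa1, Apoa2, Apoa4, Apoa5, Apob, Apoc1, Apoc3, Apoe, Apoh and Apom were examined in the mouse RNA of livers that carried human tumors. They were found by the names that a GENCODE annotation gives to the Ensembl identifiers of the mouse count table, and 10 of its 56884 genes are described as members. All 10 were among the 18018 mouse genes with at least 10 counts in total, so none was lost to the filter on low counts. The 6 libraries were bulk RNA-seq of liver from male athymic BALB/c (nu/nu) mice, labelled as 6 weeks old. All mice received cells of the human hepatocellular carcinoma (HCC) line QGY-7703 into the liver, and 1 week later an adeno-associated virus (AAV8) by tail vein. The virus carried a control siRNA in the 3 siControl samples, which the labels call WT with control AAV, and an siRNA against Aatf in the 3 siAATF samples, which they call KD with siAATF AAV. It was driven by the TBG promoter, which is active in hepatocytes, and the mice were followed for 3 more weeks. The mice thus had no functional thymus, and each library held both human and mouse RNA. The question that the comparison addresses here is how the mRNAs of the secreted lipid carriers of the mouse liver differed between siAATF and siControl.

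Mouse counts were 213022 to 913584 per library in siControl and 11835898 to 42563694 in siAATF, and human counts made up 98.1 to 99.2% of all counts in siControl against 0.972 to 2.14% in siAATF. The siControl libraries therefore stand apart in depth of mouse RNA, in the same direction as the label. Whether tumor and liver tissue were sampled in like amounts in both groups is not given in the sources used here, and tissue sampled and treatment cannot be told apart in any difference below. Aatf, the target of the siRNA, was counted 12, 1 and 23 times in the siControl libraries and 384, 109 and 340 times in the siAATF libraries. Scaled to the mouse counts of each library by TMM, it was not lower in the libraries labelled siAATF (log2 fold change 0.93 ± 0.47 (SE), edgeR quasi-likelihood test, Benjamini-Hochberg adjusted p = 0.152). Its value was -0.92 by library size alone and -1.42 scaled to hepatocyte markers, and did not pass on either scale (edgeR adjusted p = 0.174 and 0.216), while per human and mouse count it was higher (log2 5.04, edgeR adjusted p = 3.77e-10), so the counts do not establish the knockdown that the label names. Directions below are between libraries labelled siAATF and libraries labelled siControl. Nothing in the labels states that replicates are separate animals, and p-values then measure only the spread between these samples. Albumin mRNA (Alb), which defines hepatocytes, had 438 to 3081 counts in siControl and 61950 to 1226288 in siAATF.

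Apolipoproteins are the proteins that hold lipids in solution in plasma and that tell enzymes and receptors what to do with each particle. Apolipoprotein B is the single structural chain of very-low-density lipoprotein and its product low-density lipoprotein, while apolipoproteins A-I and A-II form the high-density lipoprotein (HDL) that takes cholesterol back to the liver. The smaller C proteins, apolipoprotein A-V and apolipoprotein E move between particles and set how fast triglyceride is cleared. The hepatocyte is the main source of most of them, apolipoprotein A-IV comes largely from the intestine in addition to liver, and apolipoprotein E is also made by macrophages.

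The members lie on chromosomes 1, 7, 9, 11, 12 and 17 of the mouse genome (GRCm39). Apoa1, Apoc3, Apoa4 and Apoa5 share a cluster on chromosome 9, and Apoe and Apoc1 share another on chromosome 7. The RefSeq promoter table (build GRCm38.p6) held 8 of the 10 genes, and Apoc1 and Apoc3 had no entry. For Apoa2, Apoa5 and Apoe a RefSeq start coincided with the start in the count table. The 250 bases before these starts are shown because Apoa2 had the largest fold change among the members, Apoe was the most abundant member per kb in siControl, and Apoa5 has the letters TATAAA nearest to its start. Each was placed on GRCm39 by an exact match and is read 5′ to 3′ along the transcript, with TATAAA in capitals. The reference genome is of another strain (C57BL/6J) than these mice.
Apoa2 (chr1:171052373-171052622, plus strand): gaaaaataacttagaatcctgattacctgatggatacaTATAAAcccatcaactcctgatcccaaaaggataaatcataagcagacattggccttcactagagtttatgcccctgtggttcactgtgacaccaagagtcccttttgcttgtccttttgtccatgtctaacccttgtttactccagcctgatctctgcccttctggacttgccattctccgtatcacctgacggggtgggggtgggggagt
Apoa5 (chr9:46179681-46179930, plus strand): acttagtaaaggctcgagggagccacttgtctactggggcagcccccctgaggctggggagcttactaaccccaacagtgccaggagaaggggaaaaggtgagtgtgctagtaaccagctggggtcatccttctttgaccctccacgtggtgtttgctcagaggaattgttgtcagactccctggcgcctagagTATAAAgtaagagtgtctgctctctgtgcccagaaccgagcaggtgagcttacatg
Apoe (chr7:19433114-19433363, minus strand): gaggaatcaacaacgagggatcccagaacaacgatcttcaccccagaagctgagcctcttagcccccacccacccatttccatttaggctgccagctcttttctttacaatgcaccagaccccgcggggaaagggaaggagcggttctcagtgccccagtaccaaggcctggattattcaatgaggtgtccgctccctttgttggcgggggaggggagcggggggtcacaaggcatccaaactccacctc

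The letters TATAAA began 212 bases before the start of Apoa2 and 56 before that of Apoa5, and was not in the window of Apoe. In windows of 300 bases (250 before to 50 after the start, both strands searched) it occurred in 3 of the 8 members with an entry, Apoa2, Apoa5 and Apob, and in 13.6% of 32851 promoters. The nuclear receptor motif AGGTCA was in 1 of 8, Apoh, and in 16.3% of all promoters. The HNF4-type motif CAAAGTC was in 0 of 8, and in 4.44% of all promoters. These are matches of letters, and no binding was measured.

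The apolipoprotein genes together were more abundant in siAATF. Their share of the mouse counts, by replicate number, was 2.12%, 0.500% and 0.793% in siControl against 5.27%, 2.26% and 4.96% in siAATF, and all values below are given in this order. The 95% Wilson intervals of these shares were narrow, from 0.471 to 0.531% in the shallowest library, siControl replicate 2. They treat all counts as independent, which PCR copies are not, and they leave out the spread between libraries. On the CPM scale (counts scaled to a mouse total of 1e+06) the means of siControl and siAATF were 11363 ± 8608 and 41635 ± 16562 (SD, n = 3 each), and the siControl mean was 6466 without siControl replicate 1. No siAATF library was below a siControl library, although siAATF replicate 2 (22592 CPM) was close to siControl replicate 1 (21157 CPM). In bulk RNA, fewer cells of a type and less RNA per cell cannot be told apart.

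Of the 10 genes, 8 were higher in siAATF at an adjusted p under 0.05 (edgeR, Benjamini-Hochberg over all 18018 genes), 0 were lower, and Apoa4 and Apoe did not pass. By this rule 32.0% of all genes tested passed, 17.6% higher and 14.4% lower. By the rule of the study, an unadjusted p under 0.05 with a log2 fold change whose size was 2 or more, 8 members were called as well, all higher (26.7% of all genes called, 13.6% higher), with Apoe in and Apom out. The normalised values of the groups did not overlap for 9 of the 10 genes, the exception being Apoa4, against 52.7% of all genes, or 34.5% with siAATF the higher group. The median log2 fold change was 3.47 for the members and 0.50 for all genes tested. Without siControl replicate 3 the number of members that passed was 5, with Apoa1, Apoa5 and Apom lost, and 18.8% of all genes passed. The cell types in the mouse RNA differed as well. The summed level of 12 hepatocyte markers was 18993 to 39708 CPM in the siControl libraries against 16956 to 107558 in siAATF, and 10 of the 12 were higher with 0 lower. That of 10 macrophage markers was 2882 to 8771 CPM in siControl against 63.1 to 159 in siAATF (9 of 10 lower), and that of 6 fibroblast and stellate cell markers 14153 to 23538 against 160 to 325 (4 of 6 lower). Per human and mouse count the macrophage sums (93.8 ± 73.3 against 115 ± 48.7 CPM) and the fibroblast and stellate cell sums (280 ± 115 against 216 ± 92.5 CPM, SD, n = 3 each) overlapped, so the lower values are relative to mouse RNA. The part of these cell types in the apolipoprotein result was not tested.

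**Figure D1:**
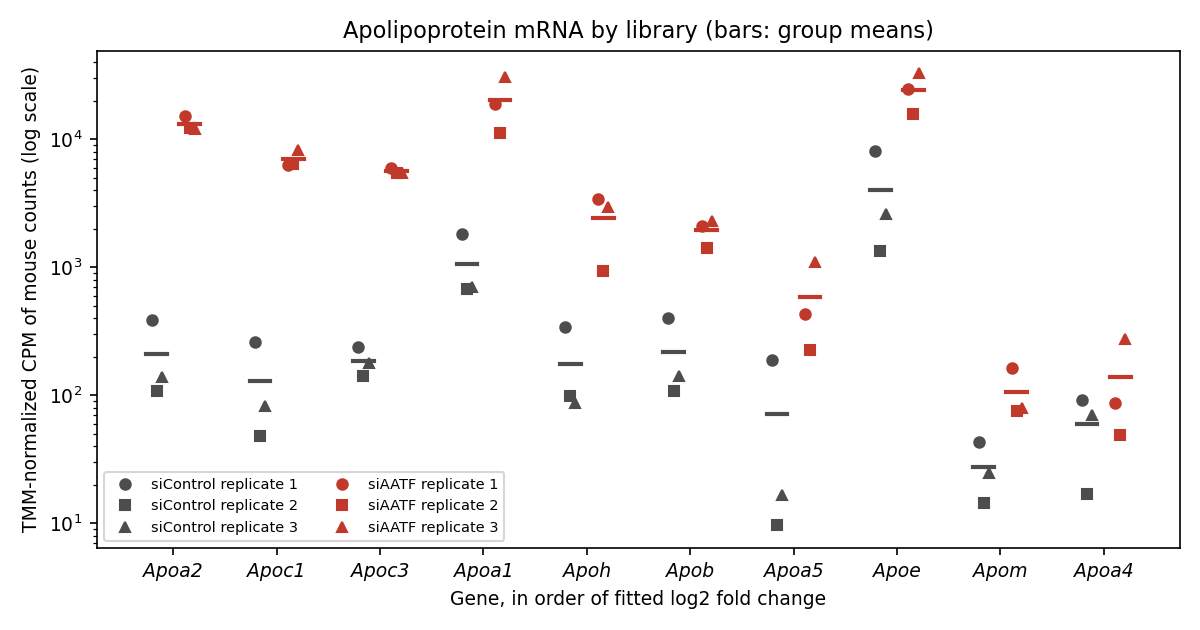
TMM-normalized CPM of mouse counts (log axis) of each of the 10 apolipoprotein genes, 1 point per library, with bars at the group means of 3 siControl and 3 siAATF libraries. The points of the groups are apart for 9 genes and mix for Apoa4, and the siControl points of Apoa5 spread from 9.66 to 188 CPM.

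Among the HDL genes, Apoa1 and Apoa2 were strongly higher in siAATF and Apom more weakly so. Apoa1 (ENSMUSG00000032083, chromosome 9, 46139878 to 46141764) encodes the main HDL protein, which activates the cholesterol-esterifying enzyme LCAT. It had 2275, 282 and 1270 raw counts in siControl and 544304, 55829 and 557868 in siAATF, or 1827, 681 and 708 CPM after TMM normalization (normalised CPM below) against 18783, 11261 and 30946. The lowest siAATF library was far above the highest siControl library. The means were 1072 ± 654 and 20330 ± 9933 CPM (SD, n = 3 each), a 19.0-fold difference (log2 fold change 4.24 ± 0.96 (SE), edgeR adjusted p = 0.00475). Without siControl replicate 3 the adjusted p of Apoa1 was 0.0651 in edgeR, and without siControl replicate 1 its log2 fold change was 4.86.

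Apoa2 (ENSMUSG00000005681, chromosome 1, 171052623 to 171053948) encodes the second most abundant HDL protein. Its normalised values were 388, 109 and 138 CPM in siControl and 15187, 12324 and 12028 in siAATF, from 45 to 483 raw counts against 61101 to 440115. The siAATF libraries lay close together (13180 ± 1745 CPM, SD, n = 3) while the siControl libraries differed among themselves (212 ± 153 CPM, SD, n = 3). The fold change of 62.0 (log2 5.95 ± 0.95 (SE), edgeR adjusted p = 0.000543) was the largest among the members, and log2 6.72 without siControl replicate 1. Apom (ENSMUSG00000024391, chromosome 17, 35347973 to 35351026) encodes the HDL protein that carries sphingosine-1-phosphate. It had 54, 6 and 44 raw counts in siControl, so siControl replicate 2 was measured thinly. The normalised values were 43.4, 14.5 and 24.5 CPM against 163, 75.0 and 79.9 CPM. All siAATF libraries were higher, by 3.72-fold in the fit (log2 1.90 ± 0.48 (SE), edgeR adjusted p = 0.00968), and without siControl replicate 3 the adjusted p was 0.0699 in edgeR. Scaled to hepatocyte markers its sign was negative.

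Among the genes of triglyceride-rich particles, Apob, Apoc1, Apoc3 and Apoa5 were higher in siAATF and Apoa4 did not pass. Apob (ENSMUSG00000020609, chromosome 12, 8027648 to 8066835) encodes the particle scaffold. It gave 401, 109 and 142 normalised CPM in siControl and 2120, 1418 and 2314 in siAATF. The groups were well apart, with means of 217 ± 160 and 1950 ± 471 CPM (SD, n = 3 each). The difference was 8.93-fold (log2 3.16 ± 0.67 (SE), edgeR adjusted p = 0.00316), or log2 3.94 without siControl replicate 1.

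Apoc1 (ENSMUSG00000040564, chromosome 7, 19423406 to 19426585) encodes a small protein that slows the uptake of remnant particles. Its 260, 48.3 and 83.1 normalised CPM in siControl stood against 6283, 6406 and 8303 in siAATF. The 3 siAATF values were near each other, and the rise was 53.1-fold (log2 5.73 ± 0.91 (SE), edgeR adjusted p = 0.000507), or log2 6.70 without siControl replicate 1. Apoc3 (ENSMUSG00000032081, chromosome 9, 46144231 to 46146934), whose protein inhibits lipoprotein lipase, had the smallest SD relative to its mean of the 10 genes in both groups. It had 240, 143 and 178 normalised CPM in siControl and 6010, 5482 and 5446 in siAATF. Its means of 187 ± 49.4 and 5646 ± 316 CPM (SD, n = 3 each) differed 30.1-fold (log2 4.91 ± 0.72 (SE), edgeR adjusted p = 0.000305), the smallest adjusted p of the 10 genes.

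Apoa5 (ENSMUSG00000032079, chromosome 9, 46179931 to 46183217) encodes a rare plasma protein that promotes lipolysis by lipoprotein lipase. It had 234, 4 and 30 raw counts in siControl and 12502, 1128 and 19821 in siAATF. As normalised CPM these were 188, 9.66 and 16.7 against 431, 228 and 1100, so siControl replicate 1 reached nearly the level of siAATF replicate 2. The difference was 8.01-fold (log2 3.00 ± 0.96 (SE), edgeR adjusted p = 0.0305). The log2 value was 5.38 without siControl replicate 1 and 2.29 without siAATF replicate 3. The call did not hold without siControl replicate 2 (edgeR adjusted p = 0.106), without siControl replicate 3 (edgeR adjusted p = 0.129) or in DESeq2 (adjusted p = 0.0603). Apoa4 (ENSMUSG00000032080, chromosome 9, 46151994 to 46154757) encodes the protein that joins chylomicrons in the gut and is induced by fat in mouse liver. Its values were 91.5, 16.9 and 70.3 normalised CPM in siControl and 87.2, 49.2 and 278 in siAATF. The groups overlapped, and only siAATF replicate 3 was above every siControl library (log2 1.17 ± 0.66 (SE), edgeR adjusted p = 0.201). The enterocyte markers Lct and Cdx2 had 0 counts in all 6 libraries. The 5 enterocyte markers summed to 0 to 8.76 CPM in siControl libraries against 10.6 to 61.4 in siAATF. In siAATF nearly all of the sum was Fabp2 (2603, 123 and 999 raw counts, against 2, 0 and 2 in siControl). Vil1 had 1, 0 and 6 raw counts in siControl against 5, 3 and 1 in siAATF.

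Apoe and Apoh complete the set. Apoe (ENSMUSG00000002985, chromosome 7, 19430034 to 19433113) encodes the ligand by which remnants are taken up by the liver. Per kb it was the most abundant member in every siControl library, with 10168, 556 and 4649 raw counts, and it had 721069, 78151 and 591506 in siAATF. Its normalised values were 8164, 1343 and 2593 CPM in siControl and 24882, 15763 and 32812 in siAATF, so the groups did not overlap. The log2 fold change of 2.60 ± 0.98 (SE) did not pass in edgeR's test (adjusted p = 0.0610). It passed without siControl replicate 1, the library with the highest control level (log2 3.63, edgeR adjusted p = 0.0144), without siAATF replicate 2 (edgeR adjusted p = 0.0308) and in DESeq2 (adjusted p = 0.000114). Macrophages also express Apoe, and the macrophage markers given above were lower in the same comparison, and their part in the Apoe values was not tested. Apoh (ENSMUSG00000000049, chromosome 11, 108286119 to 108305222) encodes beta-2-glycoprotein I, a plasma protein that binds phospholipid. It had 344, 99.0 and 87.6 normalised CPM in siControl and 3435, 931 and 2952 in siAATF. The groups were apart by 13.7-fold (log2 3.78 ± 0.79 (SE), edgeR adjusted p = 0.00298), with siAATF replicate 2 the lowest of its group, and the log2 value was 4.70 without siControl replicate 1.

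Per kilobase of exon the order of the members differed between the groups. On this scale the levels of the siControl libraries were 2194 ± 1976 normalised CPM per kb for Apoe and 1036 ± 631 for Apoa1 (SD, n = 3 each). Apoa2 (394 ± 285), Apoc1 (236 ± 205), Apoc3 (217 ± 57.2) and Apoh (149 ± 122) followed, and these neighbours did not differ beyond their spread. Apoa4, Apoa5, Apom and Apob were between 15.6 and 32.8 CPM per kb. In siAATF the level of Apoa2 (24544 ± 3249) came first, followed by Apoa1 (19642 ± 9597), Apoe (13322 ± 4642) and Apoc1 (12631 ± 2045), of which each overlapped the next within its SD. Apoc3 (6542 ± 366) and Apoh (2050 ± 1116) stood clearly below them and apart from each other. Apoa5 (232 ± 181), Apob (140 ± 33.8), Apom (105 ± 49.0) and Apoa4 (76.1 ± 67.5) were lowest. Apob, with an exon length of 13934 bases, was thus low per kb in both groups.

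Within the apolipoprotein counts of a library, the share of Apoe was lower in siAATF and those of Apoa2 and Apoc1 were higher. These shares do not depend on the scaling of the library. Apoe took 68.3%, 52.2% and 64.2% of the counts of the 10 genes in siControl and 32.2%, 29.2% and 34.1% in siAATF. Apoa2 took 3.25%, 4.23% and 3.42% in siControl and 19.6%, 22.9% and 12.5% in siAATF, and Apoc1 2.18%, 1.88% and 2.06% against 8.12%, 11.9% and 8.63%. None of these groups overlapped. The 95% Wilson interval of the Apoe share in siControl replicate 2, which had 1065 apolipoprotein counts, was 49.2 to 55.2%. It concerns that library alone and leaves out the spread between libraries.

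The shares of Apoa1, 19.8 ± 5.92% in siControl and 25.8 ± 5.78% in siAATF (SD, n = 3 each), overlapped between the groups. The share of Apoc3 was 3.98 ± 1.80% against 7.86 ± 2.25% without overlap, although siControl replicate 2 (5.54%) and siAATF replicate 3 (5.66%) were next to each other. Apob (3.70 ± 0.461% against 2.59 ± 0.171%), Apoa4 (1.05 ± 0.595% against 0.164 ± 0.108%) and Apom (0.511 ± 0.130% against 0.144 ± 0.0642%) took smaller shares in siAATF, each without overlap. Apoh and Apoa5 overlapped. With 3 libraries in each group an exact permutation test cannot give a two-sided p below 0.1, so single shares and ratios cannot reach 0.05.

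**Figure D2:**
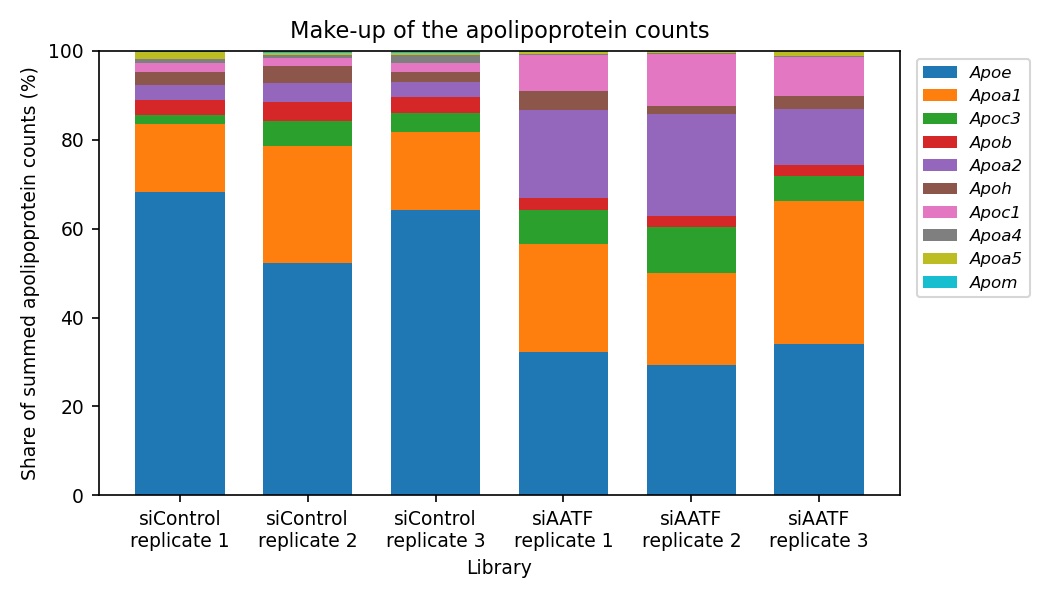
Share (%) of the summed apolipoprotein counts taken by each of the 10 genes, 1 stacked bar per library. Apoe takes 52.2 to 68.3% of the bar in siControl and 29.2 to 34.1% in siAATF, while Apoa2 and Apoc1 widen.

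Scaled to hepatocyte markers in place of all mouse RNA, a smaller set of members was higher. The scale was the summed counts of 12 hepatocyte genes (among them Alb, Ttr, Trf, Ahsg, Fgb, Hpx, Cps1 and Cyp2e1), of which siControl libraries had 27927, 4046 and 18872 and siAATF libraries 2805240, 200690 and 3760916. Trf (11615, 1843 and 9381 counts) and Hpx (6004, 1025 and 3724) weighed most in every siControl library. In siAATF Trf had 506699, 35581 and 811709 counts, Hpx 132540, 28233 and 1232042, and Alb 1226288, 61950 and 593091. Neither Trf nor Hpx passed with TMM (edgeR adjusted p = 0.159 and 0.0675), and a scale without them was not run. Per 1000 counts of the 12 hepatocyte genes the 10 apolipoprotein genes summed to 533, 263 and 384 counts in siControl against 799, 1332 and 461 in siAATF, and the groups overlapped. In edgeR with this scaling, 3 of the 10 genes were higher and 0 were lower at an adjusted p under 0.05, whereas 40.5% of all genes passed, 1.48% higher and 39.0% lower, the median log2 fold change of all genes being -2.05. On this scale 4 of the 12 hepatocyte markers themselves were higher and 0 lower, among them Cps1 (log2 3.27), Cyp2e1 (log2 2.56) and Ttr (log2 2.53), and their median was 1.24 against 0.89 for the 10 apolipoprotein genes. The members that passed were Apoa2 (log2 3.64 ± 0.87 (SE), edgeR adjusted p = 0.000203), Apoc1 (log2 3.42 ± 0.85 (SE), edgeR adjusted p = 0.000437) and Apoc3 (log2 2.41 ± 0.82 (SE), edgeR adjusted p = 0.0115).

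Apoa2 had 17.3, 11.1 and 13.1 counts per 1000 hepatocyte marker counts in siControl and 157, 304 and 57.7 in siAATF. All siAATF libraries were higher, with replicate 2 the highest and replicate 3 the lowest of them. Apoa1 was 72.8 ± 7.58 per 1000 in siControl and 207 ± 65.9 in siAATF without overlap, but did not pass in the fit (log2 1.51 ± 0.80 (SE), edgeR adjusted p = 0.119). Apoe was at 249 ± 113 and 268 ± 116 per 1000 (log2 0.10 ± 0.79 (SE), edgeR adjusted p = 0.917), values within the spread of either group. Apob (log2 0.67 ± 0.78), Apoh (1.10 ± 0.79), Apoa5 (0.44 ± 0.80) and Apom (-0.57 ± 0.83, SE) did not pass either. Apoa4 was lower in every siAATF library, 4.16 ± 2.47 per 1000 in siControl against 1.15 ± 0.223 in siAATF (SD, n = 3 each), with a log2 fold change of -1.88 ± 0.83 (SE) and an edgeR adjusted p of 0.0569. Its sign, like that of Apom, was therefore opposite to that with TMM scaling.

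**Figure D3:**
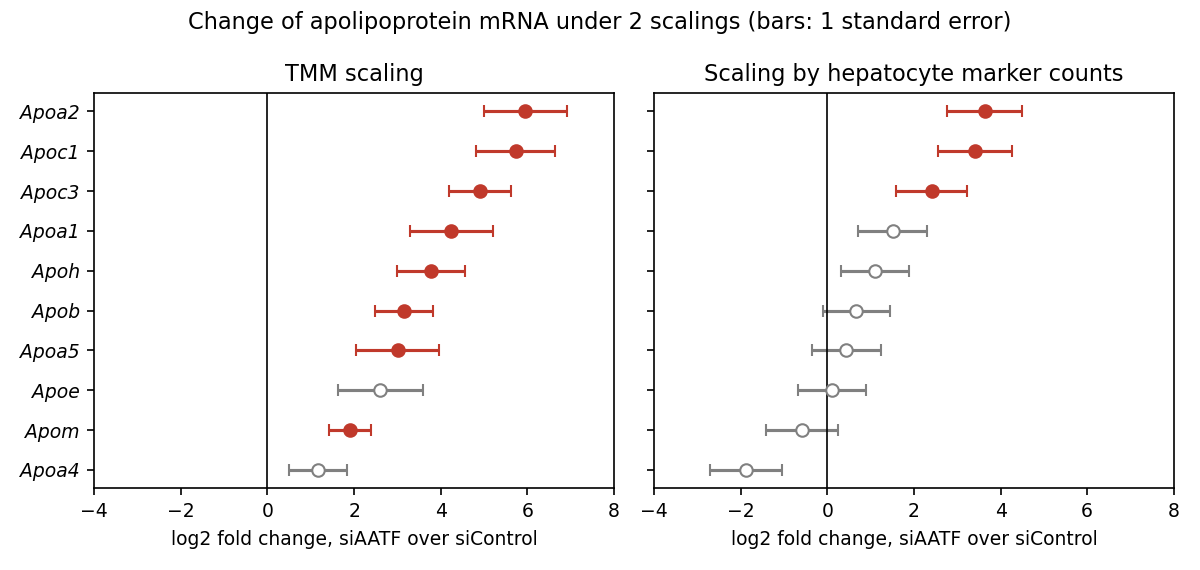
Log2 fold change of siAATF over siControl for each apolipoprotein gene, scaled by TMM over all mouse counts (left) and by hepatocyte marker counts (right), with bars of 1 standard error. All 10 values are above 0 on the left, from 1.17 to 5.95, and they range from -1.88 (Apoa4) to 3.64 (Apoa2) on the right.

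The size of the change was set beside exon length. The members with the shortest exon length, Apoa2 (537 bases), Apoc1 (554) and Apoc3 (863), had the highest log2 fold changes with TMM scaling. The order did not hold beyond them, since Apom (1013 bases) was at 1.90 and Apob (13934 bases) at 3.16, above Apoe (1838 bases) and Apoa4 (1815 bases). Over all protein-coding genes tested the median log2 fold change was 1.21 for 187 genes of up to 700 bases and 0.96 for 421 genes of over 700 to 1000 bases. It was 0.50 for 2672 genes of over 1000 to 2000 bases, 0.13 for 5381 genes of over 2000 to 4000 bases, and 0.20 for 5205 longer genes. The part of length in the result was not tested. Apoa2, Apoc1 and Apoc3 were 4.75, 4.52 and 3.95 above the median of their own length class on the log2 scale.

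The cluster on chromosome 9 spans 43.34 kb and holds Apoa1, Apoc3, Apoa4 and Apoa5, and the cluster on chromosome 7 spans 27.61 kb and holds Apoc2, Apoc4, Apoc1 and Apoe. For every 100 Apoe counts there were 3.19, 3.60 and 3.20 Apoc1 counts in siControl and 25.3, 40.6 and 25.3 in siAATF, a 9.13-fold difference of the means without overlap (two-sided exact permutation p = 0.1, the smallest possible). Apoc4, a minor member of the C group that lies beside Apoc1, had 101, 9 and 70 raw counts in siControl and 58550, 9908 and 42656 in siAATF (log2 5.46 ± 0.71 (SE), edgeR adjusted p = 0.000143). Per 100 Apoc1 counts it had 41.1 ± 8.61 in siControl and 30.6 ± 1.90 in siAATF, which overlapped. Apoc2, whose protein activates lipoprotein lipase, was counted 0, 1 and 0 times in siControl against 27, 7 and 13 times in siAATF and did not pass (edgeR adjusted p = 0.468). The table also lists Apoc2l, which overlaps Apoc2 and Apoc4 and has at most 2 counts, so Apoc2 is uncertain here.

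In the chromosome 9 cluster, Apoa4 had 5.01, 2.48 and 9.92 counts per 100 Apoa1 counts in siControl and 0.464, 0.437 and 0.898 in siAATF. Every siControl ratio was above every siAATF ratio (two-sided exact permutation p = 0.1, the smallest possible). Apoc3 per 100 Apoa1 counts (19.7 ± 6.08 against 32.8 ± 15.6) and Apoa5 per 100 (4.69 ± 4.87 against 2.62 ± 0.817) overlapped between the groups. Apoa4 shares positions with the antisense gene Gm10680, at most 8 counts in any library, and with Gm47528. Whether the counting used the strand is not given in the sources used here.

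Genes beside the clusters that encode no apolipoprotein went in both directions. Of 7 neighbours of the chromosome 9 cluster 0 were higher and 1, Tagln, was lower, a call that rests on 3, 1 and 3 raw counts in siControl against 13, 1 and 3 in siAATF, and the median of their log2 fold changes was 0.53. Of 7 neighbours of the chromosome 7 cluster, Cblc was higher (log2 2.35 ± 0.44 (SE), edgeR adjusted p = 0.00137), Relb (log2 -2.74) and Bcam (log2 -1.65) were lower, and the median was 0.54. Tomm40, which is next to Apoe and encodes a mitochondrial import channel, had a log2 fold change of 0.86 (edgeR adjusted p = 0.109). These medians are close to the 0.50 of all genes tested. Cblc was at -0.12 when scaled to hepatocyte markers, and Relb, Bcam and Tagln were above 0 per human and mouse count.

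**Figure D4:**
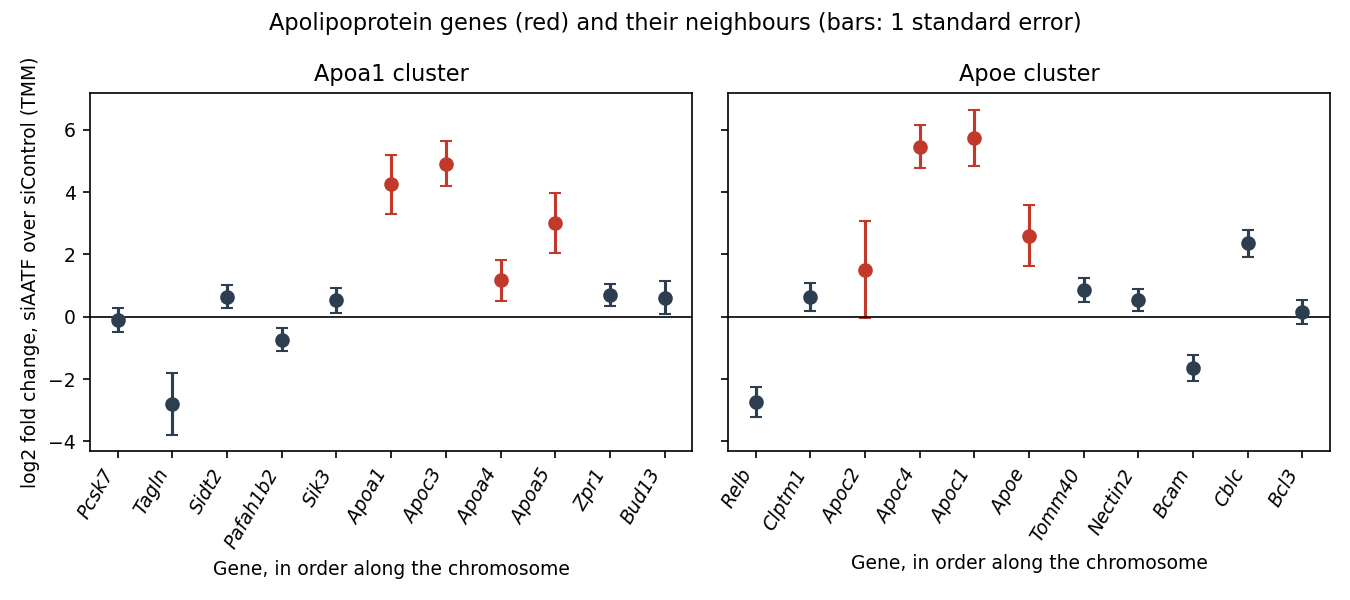
Log2 fold change of siAATF over siControl (TMM scaling) with bars of 1 standard error for the genes of both apolipoprotein clusters (red) and their neighbours, in order along the chromosome without distances. The 8 genes of the clusters stand at 1.17 (Apoa4) to 5.73 (Apoc1), and the 14 neighbours at -2.80 (Tagln) to 2.35 (Cblc), and Cblc is above Apoa4 and Apoc2.

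The wider lipoprotein pathway was read from 79 genes in 6 lists, of which 74 were tested. Of these 36 were higher and 11 lower at an adjusted p under 0.05 in edgeR, and the median of the log2 fold changes was 1.45 (1.25 with 7 genes of at most 3 counts per library in a group placed at their bound). By hepatocyte marker scaling, 4 were higher and 23 lower, against 1.48% and 39.0% of all genes. By library size alone 17 were higher and 21 lower, against 4.15% and 40.4% of all genes tested, and per human and mouse count 65 were higher and 1 lower, against 87.2% and 0.66% of all genes. Of the genes named below as lower, Olr1 (log2 -5.76) and Lrp8 (log2 -1.91) had a fitted value below 0 on that scale. Apobr (log2 -0.05) and Pla2g7 (log2 -0.16) were only just below 0 there and were not called lower. Apold1, Apobec1, Gpihbp1, Abcg1 and Npc2 were above 0. Directions below are with TMM.

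Among 12 other apolipoprotein genes tested, 6 were higher and 2 lower. Beside Apoc4, Apon (log2 4.12 ± 0.68 (SE), edgeR adjusted p = 0.000631), Apof (log2 3.99 ± 0.77 (SE), edgeR adjusted p = 0.00175) and Saa4 (log2 2.92 ± 0.59 (SE), edgeR adjusted p = 0.00236) were higher. Saa4 encodes an HDL-bound protein of the serum amyloid A family. Apol9a (log2 2.91) and Apol9b (log2 3.72) were higher too, but they are near-identical copies and their counts may be split. Apobr (log2 -4.19 ± 0.60) and Apold1 (log2 -4.02 ± 0.45, SE) were lower, with edgeR adjusted p = 0.000255 and 6.54e-05. They encode a macrophage receptor for apolipoprotein B and an endothelial protein, not secreted apolipoproteins. Apoo (1.08), Apool (1.54), Clu (1.20) and Apoc2 did not pass, the log2 values of Apoo, Apool and Clu being below 0 by library size alone.

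Of 13 genes of lipoprotein assembly and secretion, 7 were higher and 1 was lower. Mttp, the lipid transfer protein that loads apolipoprotein B, had 39.3, 12.1 and 16.7 normalised CPM in siControl and 281, 96.4 and 211 in siAATF (log2 3.06 ± 0.56 (SE), edgeR adjusted p = 0.0013). Tm6sf2, which enlarges nascent particles, was higher as well (log2 4.15 ± 0.76 (SE), edgeR adjusted p = 0.00124), with 7, 0 and 5 raw counts in siControl. Of the pair that edits Apob mRNA, the partner A1cf had 1, 2 and 2 raw counts in siControl and 708, 192 and 417 in siAATF (edgeR adjusted p = 0.00029). The deaminase Apobec1 went the other way, from 211, 84.6 and 71.4 normalised CPM in siControl to 10.9, 7.67 and 19.9 in siAATF (log2 -3.25 ± 0.54 (SE), edgeR adjusted p = 0.000667). Editing itself was not measured in gene counts.

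Of 14 plasma enzymes and inhibitors, 8 were higher and 3 lower. Angptl8 (log2 5.89 ± 0.69 (SE), edgeR adjusted p = 8.28e-05), an inhibitor of lipoprotein lipase, and Pon1 (log2 5.27 ± 0.94 (SE), edgeR adjusted p = 0.00107), an HDL-bound esterase, were the highest. Both were counted thinly in siControl, Angptl8 at 11, 1 and 11 raw counts and Pon1 at 40, 0 and 8. Lcat (log2 3.52 ± 0.56 (SE), edgeR adjusted p = 0.000518) and the hepatic lipase gene Lipc (log2 3.72 ± 0.58 (SE), edgeR adjusted p = 0.000439) were higher. Pla2g7 (log2 -4.36 ± 0.71 (SE), edgeR adjusted p = 0.000601), known from macrophages, and Gpihbp1 (log2 -4.11 ± 0.53 (SE), edgeR adjusted p = 0.000147), the capillary anchor of lipoprotein lipase, were the lowest. The macrophage markers were lower in the same comparison, as were 3 of 6 endothelial markers, while Kdr (log2 -0.75), Tek (log2 0.08) and Stab2 (log2 0.85) did not pass. The sum of the 6 endothelial markers was 518 to 756 CPM in siControl libraries against 30.7 to 104 in siAATF, but 5.88 to 12.7 against 30.4 to 103 per human and mouse count, and the part of these cells was not tested.

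Of 7 lipid transporters, 2 were higher and 2 lower. The sterol exporter genes Abcg5 (3, 0 and 1 raw counts in siControl and 495, 79 and 924 in siAATF) and Abcg8 (log2 3.06 ± 0.54 (SE), edgeR adjusted p = 0.00101) were higher. Abcg8 had 6, 0 and 7 raw counts in siControl. Abcg1 (log2 -3.22 ± 0.42 (SE), edgeR adjusted p = 0.000143) and Npc2 (log2 -2.77 ± 0.50 (SE), edgeR adjusted p = 0.00121) were lower. Abca1, which loads lipid onto apolipoprotein A-I, was at 80.7 ± 42.2 and 88.9 ± 12.6 normalised CPM (SD, n = 3 each) and did not pass (edgeR adjusted p = 0.854). Of 13 lipoprotein receptors 3 were lower, among them Olr1 and Lrp8. Scarb1, the HDL receptor, had a log2 fold change of 1.06 (edgeR adjusted p = 0.0811) and Lrp1 one of 0.54 (edgeR adjusted p = 0.398), both below 0 by library size alone. Olr1 had 4, 2 and 20 raw counts in siControl and 0 in every siAATF library, at least 21.9-fold lower against a floor of 3 counts per library. This bound leans on siControl replicate 3, since the siControl values were 3.21, 4.83 and 11.2 normalised CPM. Lrp8 had 2, 5 and 3 raw counts in siControl against 0, 0 and 2 in siAATF.

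Regulators of apolipoprotein genes were higher in 12 of 15 cases and lower in 0. Ppara, the fatty acid receptor that represses Apoc3 in mouse liver, had 4.01, 2.42 and 2.79 normalised CPM in siControl and 64.3, 205 and 70.6 in siAATF (log2 5.14 ± 0.64 (SE), edgeR adjusted p = 0.000112). Its siControl values rest on 5, 1 and 5 raw counts. Foxa2 (log2 3.44 ± 0.62 (SE), edgeR adjusted p = 0.00111) and Hnf4a (log2 3.27 ± 0.57 (SE), edgeR adjusted p = 0.000895), factors of hepatocyte identity, were higher too. Foxa2 had only 7, 2 and 2 raw counts in siControl. Nr1h2 (log2 0.51) and Srebf2 (log2 -0.08) did not pass, and both were below 0 by library size alone. With hepatocyte marker scaling 1 regulator was higher and 2 were lower.

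**Figure D5:**
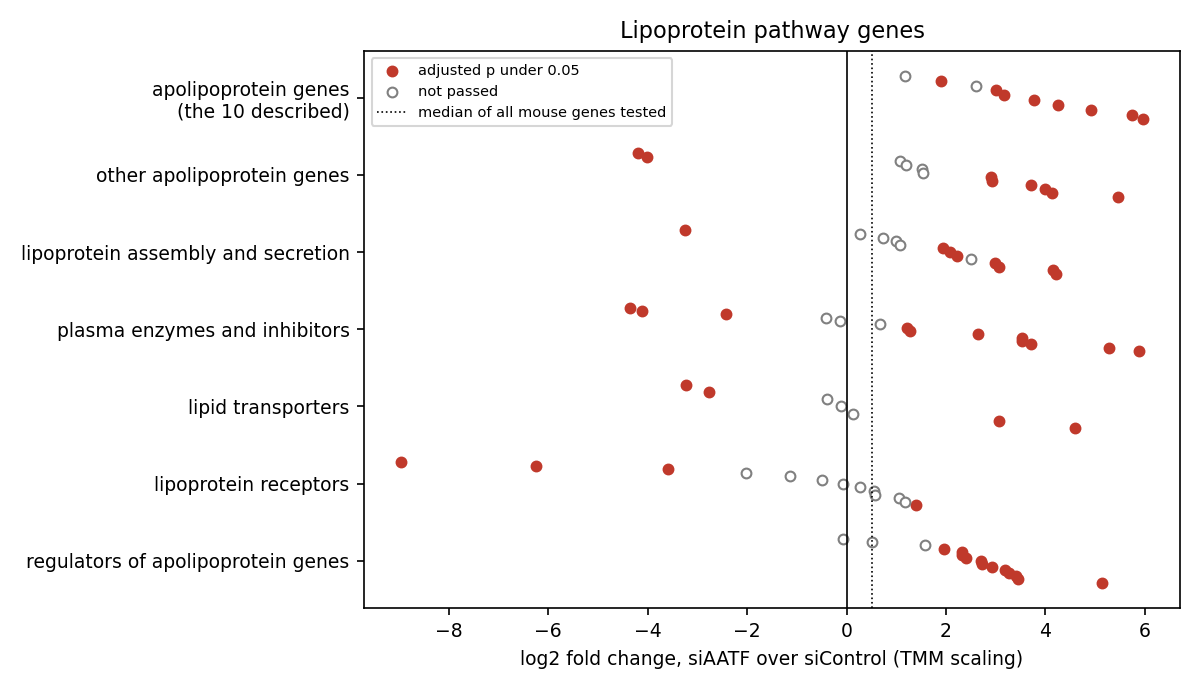
Log2 fold change of siAATF over siControl (TMM scaling) of each tested gene of the 6 pathway lists and of the 10 apolipoprotein genes, 1 point per gene, with a dotted line at 0.50, the median of all mouse genes tested. Points of genes with at most 3 counts per library in a group depend on the prior count of the fit, the regulators lie mostly right of the line, and the receptors lie on both sides of it.

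The genes whose pattern across the 6 libraries was most like the members' mean were Adk, Hsd17b2, Tfr2, Lect2 and Tst. Likeness was the root mean square distance of centred log2(normalised CPM + 1) values over 6 libraries, among 9456 genes with at least 50 counts on average, and these 5 were at 0.111, 0.117, 0.136, 0.142 and 0.186. The mean profile of the members was -0.75, -2.82 and -2.21 in siControl and 2.07, 1.36 and 2.36 in siAATF, so both replicates numbered 2 were the lowest of their groups. By the same distance Apob (0.269) and Apoa1 (0.328) were nearest to it among the members, and Apoc1 (1.14), Apoa2 (1.20) and Apoa4 (1.50) were farthest.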

How the data were processed

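Bulk RNA of 6 liver samples, 3 siControl and 3 siAATF, was sequenced with a SMART-Seq kit. The authors trimmed reads with Cutadapt, aligned them with STAR 2.7.11 to the human and mouse genomes together (mouse GRCm39), kept reads with a single place in a single species, and counted them per gene with featureCounts 2.0.1. The deposited values are raw counts, without normalization. Mouse names came from a later GENCODE release (56323 of 56884 identifiers found). Human genes were used for totals only, and 0 count columns were left unassigned.

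All mouse genes with at least 10 counts in total were fitted with edgeR 4.0.16 (R 4.3.3, quasi-likelihood test, TMM, group as the only term), with Benjamini-Hochberg adjustment over 18018 genes. TMM factors were 1.77 to 1.97 in siControl and 0.419 to 0.681 in siAATF, so TMM strongly shapes every fold change. The SE beside edgeR values, also drawn as standard error bars, is not an output of edgeR. It was derived as the size of the log2 fold change over the square root of the F statistic of the test. The fit was also run on simulated counts in which few genes changed. That run does not cover a difference in composition like that between these groups. Ratios used exact permutation tests (SciPy 1.17.1).

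Text names all members, the other measured apolipoprotein genes, the 2 highest and 2 lowest genes of each pathway list with an adjusted p under 0.05, preset pathway genes whatever their value, and the 5 genes most like the members, and a few genes of these lists are not reported here. The members and lists were chosen with earlier results of these data known. Alternatives were DESeq2 1.42.0, limma-voom 3.58.1, other scalings and filters, thinning, a replicate block and leaving out each library.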

Additional observations from a re-analysis of the deposited data

How the results depend on the processing

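Apoa2, Apoc1 and Apoc3 stayed higher and past the threshold under every alternative run. Relative to TMM, library size alone moved the log2 fold changes of all genes by a median of -1.77, hepatocyte markers by -2.56 and human plus mouse counts by 4.18, and the members are to be read against those shifts. The number of apolipoprotein genes called, 8, was 5 by library size alone, 3 by hepatocyte markers and 5 to 9 when 1 library was left out (5 without siControl replicate 3). It was 7 to 10 otherwise. The 47 pathway genes became 27 by hepatocyte markers and 23 with at least 10 counts in every library, where fewer genes are tested, and 40 to 54 when 1 library was left out.

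By hepatocyte markers Apoa1 (1.51), Apoa5 (0.44), Apob (0.67) and Apoh (1.10) lost their call, and Apoa4 (-1.88) and Apom (-0.57) changed sign. By library size alone Apoa5 (1.28), Apob (1.418) and Apom (0.21) lost it and Apoa4 was at -0.62. Apoa4 passed with human and mouse counts (5.26) and with no filter (1.28). Apoe passed in DESeq2 (2.51), in limma-voom (3.00), with human and mouse counts (6.70), after a filter of at least 10 counts in every library (2.56), after filterByExpr (2.48) and unfiltered (2.74). Apoa5 did not pass in DESeq2 (2.93). Beyond what the scaling itself does, the cause was not tested. Leaving out 1 library gave log2 fold changes of 3.90 to 4.86 for Apoa1, 5.64 to 6.72 for Apoa2, 2.84 to 3.94 for Apob, 5.35 to 6.70 for Apoc1, 4.75 to 5.13 for Apoc3, 3.43 to 4.70 for Apoh, 0.23 to 1.62 for Apoa4, 2.29 to 5.38 for Apoa5, 2.18 to 3.63 for Apoe and 1.49 to 2.36 for Apom.

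The summed apolipoprotein CPM was 193 ± 191 in siControl and 41111 ± 16530 in siAATF per human and mouse count, and without mitochondrial genes 12053 in siControl and 61690 in siAATF. Same-numbered libraries correlated at 0.096, 0.133 and -0.026 in their deviations from the group means. Not every library correlated best with its own number. With 3 libraries per group these values cannot decide whether the numbers mark pairs. With the replicate number as a block, 10 of 10 members (Apoe 2.96, Apoa4 1.11) and 51 pathway genes passed, and 37.6% of all genes, against 32.0% without it. The shallow mouse RNA of siControl limits Apom, Apoa4 and Apoa5, with 6, 7 and 4 counts in siControl replicate 2. It also limits pathway genes named above, among them Ppara, Angptl8, Pon1, Foxa2, Tm6sf2 and Abcg8.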

Other observations

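Apoa2 and Apom lie outside both clusters, and their neighbours differed from each other. All 6 neighbours tested beside Apoa2 passed, 4 higher and 2 lower at an adjusted p under 0.05 in edgeR, with a median log2 fold change of 1.87 (1.39 with Nr1i3 at its bound). Of 6 beside Apom 0 were higher and 1, Ddah2 (log2 -2.88), was lower, with a median of 0.12. Near Apoa2, Tomm40l (log2 2.29) and Pcp4l1 (log2 2.45) were higher, and Fcer1g (log2 -4.88), which encodes a chain of Fc receptors on myeloid cells, and Adamts4 (log2 -7.04) were lower. Scaled to hepatocyte markers Tomm40l was at -0.05 and Pcp4l1 at 0.15, and per human and mouse count Ddah2 was at 1.64. Nr1i3, a nuclear receptor of hepatocytes, had 0, 0 and 1 raw counts in siControl. The 5 erythroid markers overlapped between the groups, with sums of 1897 to 2171 CPM (siControl) and 333 to 2181 CPM (siAATF) of the mouse counts, and 0 of 5 passed. Per human and mouse count the sums were 14.8 to 41.8 against 329.5 to 2160, and 5 of 5 were higher, as were 87.2% of all genes tested on that scale.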
